A study of Mus musculus with 28 samples.

Results

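Atm, Atr, Chek1 and Chek2 are the 4 genes of the DNA damage checkpoint kinases, and their copy number was read in 24 mouse tumours that carry an altered p53. They were chosen by name and function, not by a measured value, and were located with the RefSeq annotation of GRCm38, the build of the files. They are 4 of the 20665 autosomal protein-coding genes that were measured in the same way. Chek1, Atm and Atr share chromosome 9, and Chek2 lies on chromosome 5.

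The checkpoint kinases pass the signal of damaged DNA to the cell cycle. ATM answers breaks of both DNA strands, and ATR answers the exposed strand at stalled replication forks. ATM activates CHK2, and ATR, with its partner ATRIP and the activator TOPBP1, activates CHK1. Their shared target p53, encoded by Trp53, stops the cell cycle or triggers cell death. In thymocytes, ATM also oversees the breaks made when T-cell receptor genes are rearranged, and loss of ATM in mice is known for thymic lymphoma.

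The study set tumours with a dimeric p53 against tumours with a monomeric p53, 2 forms that fall short of the tetramer in which p53 binds DNA. AD mice had the genotype p53 AD/- and RP mice the genotype p53 RP/-, so every animal had the altered allele opposite a null allele in its germline. Thymic lymphoma, a cancer of developing T cells, was sampled in 7 AD and 7 RP animals, and sarcoma, a cancer of connective tissue, in 5 AD and 5 RP animals. The strain background of all was 50% BALB/C with 50% C57BL6, and collection was at end point. The labels give no age. No group with wild-type p53 was analysed here, nor were the 4 ear samples, so each contrast is between altered forms. Exome DNA holds no expression markers, so the tissue labels could not be checked against cell types, and normal cells in a tumour pull each log2 value towards 0.

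Values are the deposited log2 copy ratios of the segment that holds a gene, where 0 is the level of the comparison DNA. That DNA is not given in the sources used here, nor is the read depth behind a value. The labels call the 4 ear samples normal controls, but do not say which tumours they were compared with. By animal number in the labels, they match AD thymic lymphoma 1, RP thymic lymphoma 4, AD sarcoma 5 and RP sarcoma 3. The other tumours have no ear sample of their own. Tumours had 59 to 517 segments over 211948 to 212450 markers, the capture targets or windows that were segmented. Chromosome 9 had 12527 markers in every AD thymic lymphoma, 12530 in every RP thymic lymphoma, 12541 in every AD sarcoma and 12546 in every RP sarcoma. On chromosome 5 the numbers were 13941, 13944, 13956 and 13954. Groups that differ in their markers may have been processed apart, and such processing cannot be told apart from genotype or tumour type. Each tumour was 1 replicate, so p-values measure the spread between tumours.

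Chek1 (chromosome 9, 36708482 to 36726658), Atm (53437122 to 53536828) and Atr (95857597 to 95953217) are spread over most of their chromosome, with 16.7 Mb between Chek1 and Atm and 42.3 Mb between Atm and Atr. Chek2 lies at chromosome 5, 110839800 to 110874140. Every one of the 4 genes lay whole inside 1 segment in all 24 tumours, so no boundary cut a kinase gene. Segments were long. The one around Chek1 had 230 to 12513 markers over 2.13 to 121 Mb, and the one around Chek2 had 2082 to 13956 markers over 12.5 to 148 Mb. A value is therefore that of a stretch of chromosome with many genes, not of the kinase gene alone.

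No kinase gene was called lost in any tumour. A gain was called where the value was at least 0.3, and a loss where it was -0.3 or lower. Losses of any of the 4 genes numbered 0, while the background share of lost gene and tumour pairs was 13.2% for AD and 22.9% for RP thymic lymphomas, and 0.853% for AD and 0.575% for RP sarcomas. The 3 genes of chromosome 9 share their segments and do not count as separate observations in that comparison. The values nearest to a loss were -0.28 in RP thymic lymphoma 4, for Chek1, Atm and Atr together, and -0.28 in RP thymic lymphoma 7, for Atm and Atr. At a limit of 0.2 in place of 0.3, Chek1 was called lost in 2 and Atm and Atr in 3 of 7 RP thymic lymphomas and in 0 tumours of the other groups. With the autosomal median of each tumour subtracted, Atm and Atr stood at -0.19, -0.03 and -0.09 in RP thymic lymphomas 3, 4 and 7. Chek1 had the same centred values as Atm in RP thymic lymphomas 3 and 4. None of these centred values reached the limit of 0.2. Gains were called for Chek2 in 4 AD thymic lymphomas, for Chek1 in 2 RP thymic lymphomas and for Atm and Atr in 1 of those. Over all genes, gains made up 10.3% of gene and tumour pairs for AD and 10.5% for RP thymic lymphomas, and 2.99% for AD and 0.661% for RP sarcomas. With each tumour centred on its autosomal median, Chek1, Atm and Atr were gained in AD thymic lymphoma 7, at 0.45, 0.44 and 0.46. Their counts in the RP thymic lymphomas stayed the same. No share over all genes is given for centred calls.

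**Figure D1:**
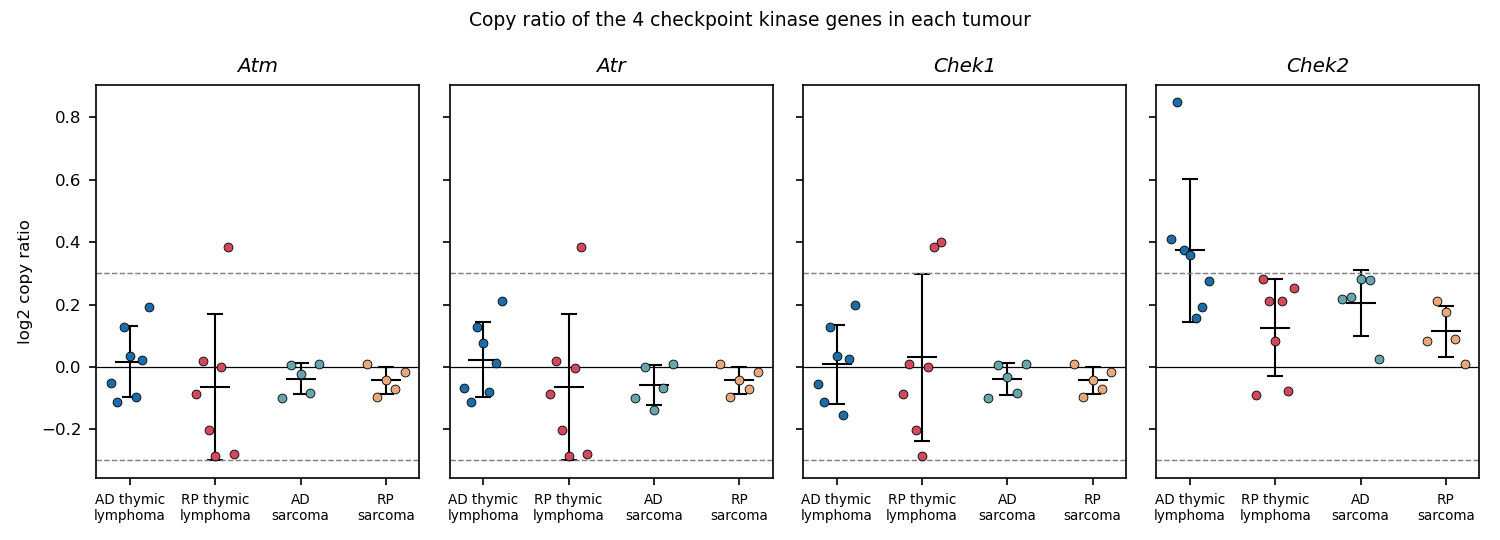
Log2 copy ratio (vertical axis) of Atm, Atr, Chek1 and Chek2 in each tumour of the 4 groups (horizontal axis); points are tumours in replicate order, bars are the mean and SD, and dashed lines are the limits of 0.3 and -0.3. Chek2 stood above 0.3 in 4 AD thymic lymphomas, up to 0.85, and no point lies below -0.3.

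Atm, the kinase that responds to broken chromosomes, stayed near the comparison level in most tumours. In AD thymic lymphomas 1 to 7 its log2 copy ratios were -0.05, -0.11, 0.13, 0.04, -0.10, 0.02 and 0.19. In RP thymic lymphomas 1 to 7 they were -0.09, 0.02, -0.20, -0.28, 0.00, 0.39 and -0.28. The RP tumours reached further both ways than the AD tumours, with RP thymic lymphoma 6 alone at the top, and the groups overlapped. The means were 0.02 ± 0.11 (SD, n = 7) in AD and -0.06 ± 0.23 (SD, n = 7) in RP tumours. The difference of 0.08 (SE 0.10) did not pass the exact permutation test over all autosomal genes (p = 0.436, adjusted p = 0.615). Without RP thymic lymphoma 6 it was 0.16 (exact permutation p = 0.0519, adjusted p = 0.243).

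Sarcomas varied far less at Atm. Its values were -0.10, 0.01, -0.02, -0.08 and 0.01 in AD sarcomas 1 to 5, and 0.01, -0.10, -0.04, -0.07 and -0.02 in RP sarcomas 1 to 5. Every sarcoma lay within 0.10 of 0 and the groups overlapped almost entirely. The means were -0.04 ± 0.05 and -0.04 ± 0.04 (SD, n = 5 each), a difference of 0.01 (SE 0.03, exact permutation p = 0.849, adjusted p = 0.999).

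Atr, the kinase of stalled forks, followed Atm closely although it lies 42.3 Mb away. AD thymic lymphomas 1 to 7 stood at -0.07, -0.11, 0.13, 0.08, -0.08, 0.01 and 0.21. RP thymic lymphomas 1 to 7 stood at -0.09, 0.02, -0.20, -0.28, 0.00, 0.39 and -0.28. AD thymic lymphoma 7 and RP thymic lymphoma 6 were the highest of their groups, as at Atm, and the groups overlapped. The means were 0.02 ± 0.12 and -0.06 ± 0.23 (SD, n = 7 each), with a difference of 0.09 (SE 0.10, exact permutation p = 0.399, adjusted p = 0.603). Without RP thymic lymphoma 6 the difference was 0.16 (exact permutation p = 0.0472, adjusted p = 0.243).

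In sarcomas, Atr had -0.10, 0.00, -0.14, -0.07 and 0.01 in AD tumours 1 to 5, and its RP values equalled those of Atm, because both genes lay on 1 segment in 5 of 5 RP sarcomas. The lowest sarcoma was AD sarcoma 3, where Atr was 0.11 below Atm. The means were -0.06 ± 0.06 and -0.04 ± 0.04 (SD, n = 5 each), and the difference was -0.02 (SE 0.03, exact permutation p = 0.651, adjusted p = 0.999).

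Chek1, the kinase that ATR activates, had the values of Atm and Atr in most tumours and parted from them in RP thymic lymphoma 7. Its log2 copy ratios were -0.06, -0.11, 0.13, 0.04, -0.15, 0.02 and 0.20 in AD thymic lymphomas 1 to 7. In RP thymic lymphomas 1 to 7 they were -0.09, 0.01, -0.20, -0.28, 0.00, 0.39 and 0.40. RP thymic lymphomas 6 and 7 lay above every AD tumour and RP thymic lymphomas 3 and 4 below every AD tumour, so the RP values enclosed the AD values. The means were 0.01 ± 0.13 and 0.03 ± 0.27 (SD, n = 7 each), a difference of -0.02 (SE 0.11, exact permutation p = 0.837, adjusted p = 0.922).

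The gain of Chek1 in 2 of 7 RP and 0 of 7 AD thymic lymphomas did not pass Fisher's exact test (p = 0.462, adjusted p = 1). In sarcomas the AD values of Chek1 were -0.10, 0.01, -0.03, -0.08 and 0.01, and the RP values were those of Atm. All sarcomas lay near 0 and overlapped, with means of -0.04 ± 0.05 and -0.04 ± 0.04 (SD, n = 5 each) and a difference of 0.00 (SE 0.03, exact permutation p = 0.905, adjusted p = 0.999).

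Along chromosome 9 the 3 kinase genes mostly moved as a unit. All 3 lay on the same segment in 13 of 24 tumours, which were 2 of 7 AD and 4 of 7 RP thymic lymphomas, 2 of 5 AD sarcomas and 5 of 5 RP sarcomas. Chek1 and Atm shared a segment in 17 tumours, and Atm and Atr in 15. Where segments differed, the genes still had nearly the same value in all but a few tumours. Chek1 and Atm differed by less than 0.1 in 13 of 14 thymic lymphomas and 10 of 10 sarcomas, and Atm and Atr in 14 of 14 and 9 of 10.

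**Figure D2:**
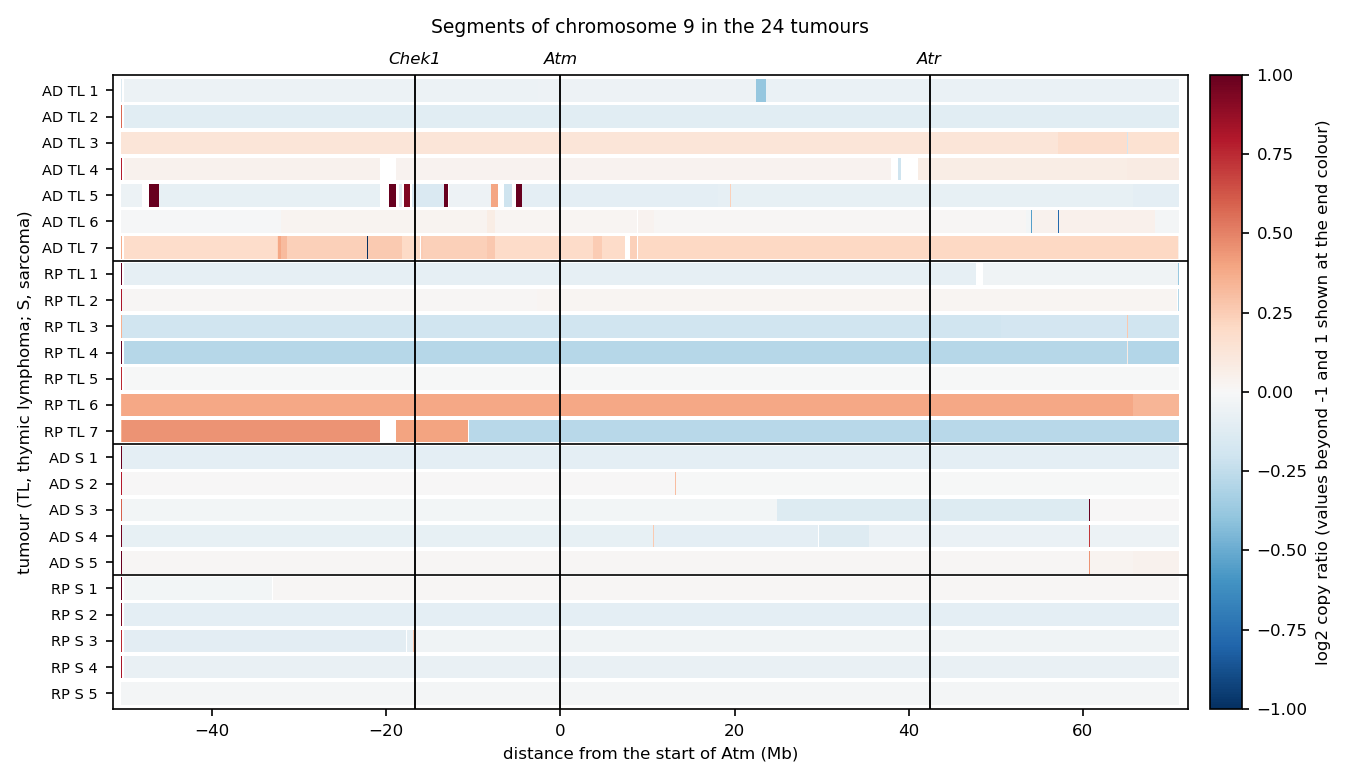
Segments of chromosome 9 in the 24 tumours (rows), drawn by distance in Mb from the start of Atm (horizontal axis) and coloured by log2 copy ratio, with lines at Chek1, Atm and Atr. RP thymic lymphoma 7 changes from 0.40 at Chek1 to -0.28 at Atm, and AD thymic lymphoma 5 shows short high segments on both sides of Chek1.

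RP thymic lymphoma 7 was the exception. Its Chek1 lay in a segment from 34489103 to 42808492, with 735 markers, at 0.40 or 1.32 times the comparison DNA. The next segment ran from 42969181 to 124493730, the last position of the chromosome in the file, with 9553 markers, and held Atm and Atr at -0.28 or 0.824 times. The boundary therefore fell between 42808492 and 42969181, at most 6243 kb beyond Chek1 and at least 10468 kb before Atm. The log2 copy ratio was 0.68 higher at Chek1 than at Atm and Atr in this tumour, and in no other tumour did a pair of these genes differ by 0.2 or more.

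The same boundary split the genes that work with these kinases. Mre11a, a nuclease subunit of the MRN complex that recruits ATM to breaks, lay on the gained side of RP thymic lymphoma 7 at 0.45. H2ax, the histone that ATM marks at breaks, lay on the other side at -0.28. Tipin, Topbp1, Atrip and Cdc25a, which serve the ATR and CHK1 branch, were also at -0.28 in this tumour.

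The mean within-tumour difference of Chek1 and Atm was 0.04 ± 0.18 (SD, n = 14) in thymic lymphomas. It did not pass an exact sign-flip permutation test (p = 0.844, adjusted over 6 tests p = 1). Without RP thymic lymphoma 7 that mean was -0.0048, and the largest difference left was 0.057 in size. The mean difference of Atm and Atr was 0.00 ± 0.01 (SD, n = 14), with an exact permutation p of 0.469 and an adjusted p of 1. In sarcomas the mean of Chek1 minus Atm was 0.00 and that of Atm minus Atr was 0.01 ± 0.04 (SD, n = 10), where the exact permutation p was 0.75 and the adjusted p was 1. AD sarcoma 3 supplied most of the latter, at 0.11.

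AD thymic lymphoma 5 had high segments on both sides of Chek1. Its 19 segments of chromosome 9 included 1 from 6168794 to 7358226 at 3.35, which is 10.2 times the comparison DNA and holds Mmp13 and Pdgfd. Chek1 lay in a low segment from 36431883 to 40022394, with 364 markers, at -0.15. On its proximal side, 580 kb from the gene, a segment of 84 markers stood at 0.93, and on its distal side, 3348 kb from the gene, a segment of 49 markers stood at 1.25. Chek1 itself was thus between high segments and not in one.

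Atm in the same tumour was also beside a high segment. A stretch from 48319390 to 48964745, with 58 markers, stood at 1.86 or 3.63 times the comparison DNA. It holds Zbtb16, the gene of a zinc finger transcription factor, and ends 4472 kb before Atm. Atm lay in the next segment, 48985480 to 71515068, with 2806 markers, at -0.10. Atr lay in a segment of 4888 markers at -0.08, so none of the 3 kinase genes was inside a high segment in AD thymic lymphoma 5.

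**Figure D3:**
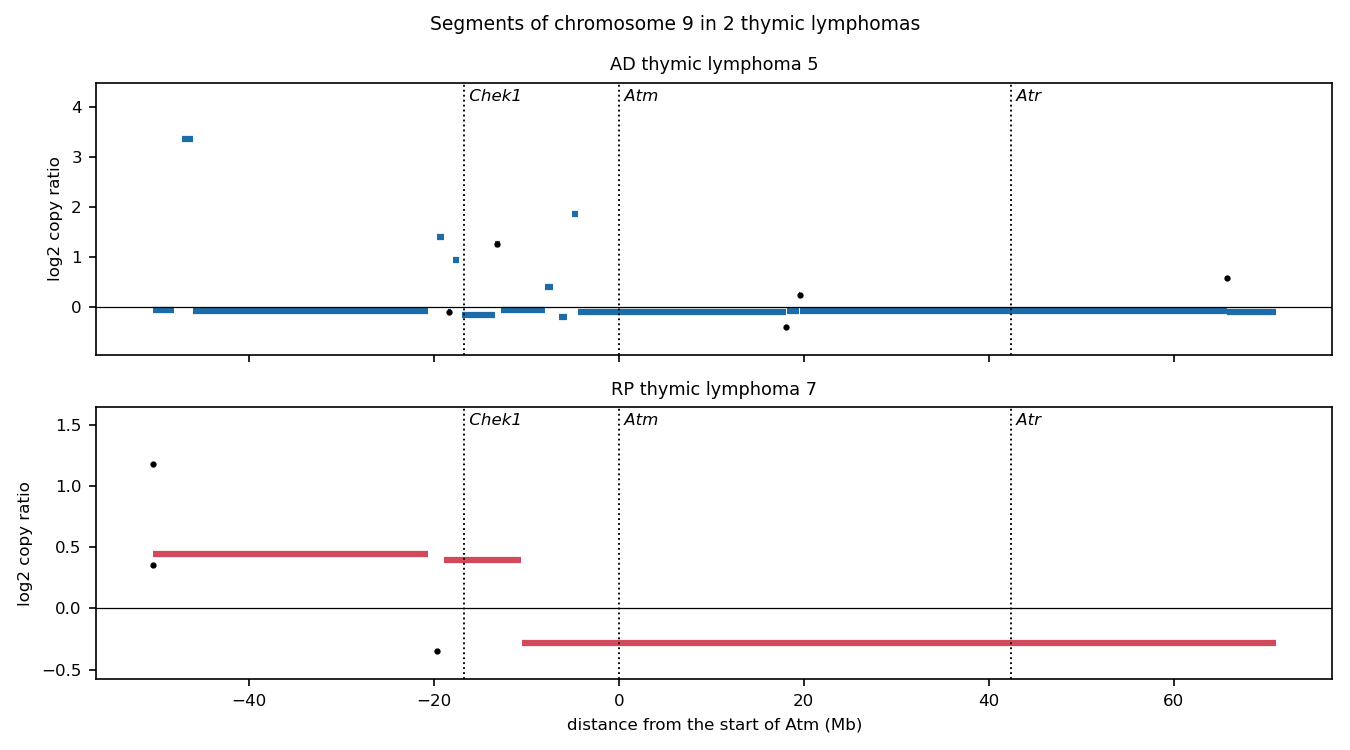
Log2 copy ratio (vertical axis) of the chromosome 9 segments of AD thymic lymphoma 5 and RP thymic lymphoma 7 by distance in Mb from the start of Atm (horizontal axis); lines are segments, black points mark segments under 0.5 Mb, and dotted lines mark the kinase genes. In AD thymic lymphoma 5 Chek1, at -0.15, sits between segments at 0.93 and 1.25, and in RP thymic lymphoma 7 the level falls from 0.40 to -0.28 between Chek1 and Atm.

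Breakpoints between the kinase genes were counted as steps of 0.2 or more in log2 copy ratio between neighbouring segments. From Chek1 to Atm, 4 of 7 AD and 2 of 7 RP thymic lymphomas had at least 1 step (Fisher's exact test, p = 0.592, adjusted over 4 tests p = 0.678). From Atm to Atr, 5 of 7 AD and 1 of 7 RP thymic lymphomas did (Fisher's exact test, p = 0.103, adjusted p = 0.344). In sarcomas the counts were 1 of 10 and 3 of 10, all of them AD tumours. Against thymic lymphomas this gave p = 0.172 and p = 0.678 by Fisher's exact test, with adjusted p = 0.344 and p = 0.678. AD thymic lymphomas 6 and 7, which had steps in both stretches, had 360 and 517 segments over the whole genome. The other AD thymic lymphomas had 106 to 258 segments and the RP thymic lymphomas 117 to 161.

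Steps were common elsewhere in these genomes. In thymic lymphomas 30.0% of autosomal windows as long as the stretch from Chek1 to Atm had a step, and 55.5% of windows as long as the stretch from Atm to Atr. The same shares in sarcomas were 19.2% and 41.0%. A whole autosome had a step in 87.6% of tumour and autosome pairs in thymic lymphomas and 78.4% in sarcomas. The thymic lymphoma count was 6 of 14 for each stretch, above the share of the shorter windows and below that of the longer ones.

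Most of the steps led into a short segment and straight out again. In AD thymic lymphoma 7 all of the 8 steps between Chek1 and Atm, and all of the 8 between Atm and Atr, bounded low segments of 2 to 8 markers. The lowest of them touch Spa17 and Siae at -1.66, Sidt2 at -1.38 and Man2c1 at -1.36. Others touch Cd3g and Cd3d, which encode subunits of the T-cell receptor complex, at -0.80, and Pml, a nuclear body gene, at -0.76. AD thymic lymphoma 6 also had low segments in Cd3d, at -0.49, and in Sidt2, at -0.74. It shared with AD thymic lymphoma 7 a segment of the same ends, 62341500 to 62343948, at -0.85 and -1.08. Whether such short segments arise in the tumour or in the library was not tested.

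When segments under 10 markers were left out, steps from Chek1 to Atm remained in 2 AD and 1 RP thymic lymphomas and in 0 of 10 sarcomas. Those from Atm to Atr remained in 4 AD and 0 RP thymic lymphomas and in 0 sarcomas (Fisher's exact test between AD and RP, p = 0.0699). The widest of the latter were a segment of 44 markers at -0.39 in AD thymic lymphoma 1, between 75886637 and 77031688, and one of 60 markers at -0.21 in AD thymic lymphoma 4, between 92193227 and 92607074. Atm and Atr, on either side of these segments, were 0.02 and 0.04 apart in those tumours.

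Chek2, the kinase that ATM activates, had the highest mean copy ratio of the 4 kinase genes in every group. It stood above 0 in 22 of 24 tumours. In AD thymic lymphomas 1 to 7 its log2 copy ratios were 0.41, 0.85, 0.38, 0.36, 0.16, 0.19 and 0.28. In RP thymic lymphomas 1 to 7 they were -0.09, 0.28, 0.21, 0.08, 0.21, -0.08 and 0.25. AD thymic lymphomas 1 to 4 were above every RP tumour, RP thymic lymphomas 1, 4 and 6 were below every AD tumour, and the remaining values overlapped.

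The means of Chek2 were 0.37 ± 0.23 in AD and 0.13 ± 0.16 in RP thymic lymphomas (SD, n = 7 each). The difference of 0.25 (SE 0.10) had an exact permutation p of 0.0204 and did not pass after adjustment over all autosomal genes (adjusted p = 0.469). The share of all genes with p under 0.05 was 0% after adjustment and 8.55% before it. With limma the p for Chek2 was 0.0244 and the adjusted p 0.475. AD tumours 1 to 4 were called gained against 0 of 7 RP tumours, which did not pass Fisher's exact test (p = 0.0699, adjusted p = 1). Over all genes, 0% of such tests of gains and losses passed after adjustment and 0.0169% before it. At a limit of 0.2 in place of 0.3, Chek2 was gained in 5 AD and 4 RP thymic lymphomas. With each tumour centred on its autosomal median and the limit at 0.3, it was gained in 6 AD and 3 RP thymic lymphomas. The difference of means was then 0.24 (exact permutation p = 0.0315, adjusted p = 0.506).

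The difference in Chek2 was shared by much of chromosome 5. Of all genes, 3.43% were gained in at least 4 AD and in 0 RP thymic lymphomas, the pattern of Chek2 itself. All 708 of them lie on chromosome 5, where they make up 55.8% of the 1269 genes. An unadjusted exact permutation p under 0.05 was found for 1766 of all genes, and 1154 of these lie on chromosome 5. Over all autosomes 650 genes were higher in AD by as much as Chek2 or more, and 430 of them lie on chromosome 5. After the median of chromosome 5 was taken from each tumour, the difference of Chek2 was 0.07 (exact permutation p = 0.227, adjusted p = 0.946). Chek2 stood at that median in 1 AD and 2 RP thymic lymphomas, where the subtraction removes its own value. This test therefore cannot tell the gene apart from its chromosome.

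Sarcomas had a smaller range at Chek2. AD sarcomas 1 to 5 stood at 0.22, 0.22, 0.28, 0.28 and 0.02, and RP sarcomas 1 to 5 at 0.08, 0.21, 0.18, 0.09 and 0.01. AD sarcomas 1 to 4 were above every RP sarcoma, and AD sarcoma 5 fell among the lowest RP tumours. The means were 0.21 ± 0.11 and 0.11 ± 0.08 (SD, n = 5 each), a difference of 0.09 (SE 0.06, exact permutation p = 0.151, adjusted p = 0.557). The shares over all genes were 0% after adjustment and 5.07% before it. With 5 against 5 tumours the smallest exact p is 0.00794. All 10 sarcomas were above 0 at Chek2, as they were at 17.2% of all genes, and 0 of 10 reached 0.3.

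**Figure D4:**
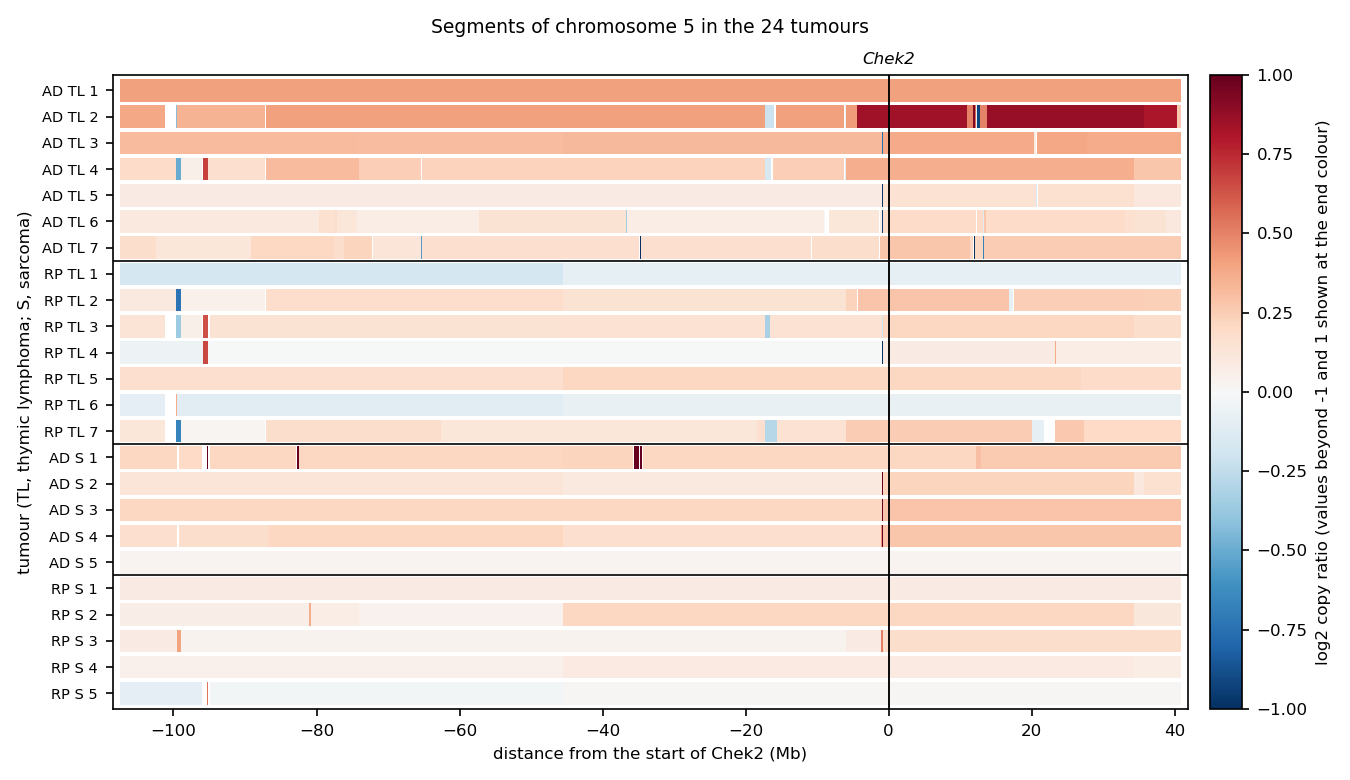
Segments of chromosome 5 in the 24 tumours (rows), drawn by distance in Mb from the start of Chek2 (horizontal axis) and coloured by log2 copy ratio. Chek2 lies in a distal part of the chromosome with slightly higher values in most rows, with the deepest colour in AD thymic lymphoma 2 at 0.85.

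AD thymic lymphoma 2 had the highest Chek2 of all tumours, at 1.8 times the comparison DNA. The gene lay in a segment from 106455449 to 121828401, with 2546 markers over 15.4 Mb and 212 protein-coding genes. The segment before it, of 93 markers, stood at 0.42, and the length-weighted median of chromosome 5 in this tumour was 0.44 below Chek2. Farther along, a segment of 131 markers from 123171977 to 123638955 stood at -0.92 or 0.527 times, and a longer one of 3107 markers from 124578436 stood at 0.87. Ppp1cc, a phosphatase catalytic subunit whose product can reverse checkpoint phosphorylation, lay in the segment that directly follows that of Chek2, from 121852576 to 122683174, at 0.50. Brca2, the recombination gene near the end of the chromosome, stood at 0.82.

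Within chromosome 5, Chek2 lay in a distal part with slightly higher log2 copy ratios in most tumours. In 21 tumours the chromosome had a segment boundary before Chek2, and Chek2 was above the mean of the proximal part in 20 of them. The median of that difference was 0.09 and its range -0.02 to 0.46, with AD thymic lymphoma 2 at the top. AD sarcoma 1 was the 1 tumour in which Chek2 was lower, and the other 3 tumours had 1 segment from the start of the chromosome through Chek2. The boundary was often at the same place. In 7 tumours the segment of Chek2 began at 110006615, 833 kb before the gene, and in 4 others, all RP, it began at 65348411. A segment also began at 65348411 in AD thymic lymphomas 3 and 6 and AD sarcoma 2, where Chek2 had a nearer boundary. Other chromosomes were not compared in this way. Whether the higher distal level, seen in both genotypes and tumour types, arises in the tumour or in the processing was not tested.

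The boundary at 110006615 lay beside a segment of 4 markers from 109940425 to 109996627 that touches Zfp932, a zinc finger gene. It was low in the 4 thymic lymphomas that had it, at -0.75, -0.97, -0.94 and -1.26, and high in the 3 AD sarcomas that had it, at 1.34, 1.53 and 1.52. Chek2 itself did not follow these opposite directions. Chek2 stood 0.05, 0.07, 0.12 and 0.09 above the nearest proximal segment of 10 or more markers in those thymic lymphomas, and 0.13 above, 0.07 above and 0.16 below it in AD sarcomas 2, 3 and 4. In AD sarcoma 4 that nearest segment had only 10 markers, at 0.44. The segment before it, of 3279 markers, stood at 0.17, below Chek2 at 0.28. The source of the segment of 4 markers was not tested.

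By mean log2 copy ratio, Chek2 ranked AD thymic lymphomas first, then AD sarcomas, RP thymic lymphomas and RP sarcomas, at 0.37, 0.21, 0.13 and 0.11. Neighbours in that order overlapped in their tumours. The difference of Chek2 between AD and RP was 0.16 larger in thymic lymphomas than in sarcomas, which an exact permutation test did not separate from the spread (p = 0.274). For Atm, Atr and Chek1 all group means lay between -0.06 and 0.03. For each gene they differed by less than the SD of either thymic lymphoma group, which was 0.11 to 0.27. The SD of the sarcoma groups was smaller, at 0.04 to 0.06, and some means differed by more than that.

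Thymic lymphomas and sarcomas of both genotypes were then compared with permutations within genotype. Chek2 averaged 0.25 ± 0.23 (SD, n = 14) in thymic lymphomas and 0.16 ± 0.10 (SD, n = 10) in sarcomas. The difference of 0.09 (SE 0.07) did not pass the permutation test (p = 0.206, adjusted p = 0.456), and without AD thymic lymphoma 2 it was 0.04. When each tumour was centred on its autosomal median, the difference was 0.18 (permutation p = 0.0138, adjusted p = 0.0573). Those medians ran from -0.25 to -0.01 in thymic lymphomas and from -0.09 to 0.0049 in sarcomas.

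Gains of Chek2 in 4 of 14 thymic lymphomas and 0 of 10 sarcomas gave a Fisher's exact p of 0.114 and an adjusted p of 0.495, while 1.41% of tests over all genes passed. With centring the counts were 9 and 1. Chek1 differed by 0.06 (SE 0.06), Atm by 0.02 (SE 0.05) and Atr by 0.03 (SE 0.05), with permutation p of 0.375, 0.799 and 0.642. So 0 of the 4 kinase genes passed a test that 39.8% of all genes passed. The chromosome 9 genes had a wider spread in thymic lymphomas than in sarcomas. The SD was 0.20 against 0.04 for Chek1, 0.18 against 0.04 for Atm and 0.18 against 0.05 for Atr. This was not particular to them, as the SD of Chek2 was 0.23 against 0.10. Rad50 on chromosome 11 had an SD of 0.12 in AD and 0.21 in RP thymic lymphomas, against 0.07 and 0.06 in sarcomas. Wee1 on chromosome 7 differed less in this, at 0.10 and 0.14 against 0.12 and 0.12. The spread was not compared over all genes.

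The other genes of the checkpoint pathway were taken from a list of 56, all of which were measured, 1 of them under a newer symbol. Between AD and RP tumours 0 of 56 passed the adjusted exact permutation test in either tumour type. In thymic lymphomas 4 had an unadjusted p under 0.05, namely Ppp1cc and Brca2, 11.3 and 39.7 Mb from Chek2 on chromosome 5, and Rad1 and Rpa3. In sarcomas 2 did, Rnf8 and Cdkn1a. These counts are 7.14% and 3.57% of the list, below the 8.55% and 5.07% of all genes. The median difference over the list was 0.04 in thymic lymphomas and 0.00 in sarcomas, and over all genes it was 0.04 and 0.01.

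Between tumour types, 17 of the 56 passed, or 30.4%, which is below the 39.8% of all genes that passed. In thymic lymphomas 4 of them, or 7.14%, were higher and 13, or 23.2%, were lower, beside 5.69% and 34.2% of all genes. The median difference was -0.04 over the list and -0.04 over all genes, and the genes that follow are named for their own values. The 4 higher genes all lie on chromosome 4. They are Nbn, the MRN subunit that binds ATM, Rpa2, a subunit of the protein that coats exposed strands and draws ATR, Clspn, the adaptor through which ATR reaches CHK1, and Mad2l2. They were higher by 0.29, 0.29, 0.29 and 0.30 (permutation adjusted p = 0.000559, 0.000591, 0.00063 and 0.000591) and were altered in 7, 8, 8 and 9 of the 24 tumours.

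Sensors of damage were among the 13 lower genes. Rad17, which loads the clamp that activates ATR, was 0.31 lower (difference -0.31, permutation adjusted p = 0.0014) and was lost in 5 of 7 AD and 5 of 7 RP thymic lymphomas. Rad9a, a subunit of that clamp, was altered in 5 tumours and had a difference of -0.20 (permutation adjusted p = 0.0118). Rpa3, the small subunit of the strand-coating protein, had a difference of -0.22 (permutation adjusted p = 0.0073). It was altered in 8 tumours, and AD thymic lymphoma 3 went the other way at 0.30.

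Among cell cycle genes below the kinases, Wee1 and Plk1, kinases that hold back and promote mitosis, had differences of -0.36 and -0.37 (permutation adjusted p = 0.000254 for each). They share chromosome 7 with Palb2, Fanci and Blm, which serve repair and passed as well. Cdc25c, the phosphatase that CHK1 and CHK2 restrain, had a difference of -0.16 (permutation adjusted p = 0.0216) and was lost in 4 of 7 AD and 4 of 7 RP thymic lymphomas. The remaining lower genes were Rad52 and Fancd2 on chromosome 6, Wrn on chromosome 8 and Smc3 on chromosome 19.

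Other listed genes were altered in 5 or more tumours without passing between tumour types. Xrcc6, a subunit of the Ku end-binding protein, was altered in 7 tumours, and Rad1, Rnf168 and Rrm2 in 5 each. In all 21 of the 56 genes, or 37.5%, were altered that often, beside 47.7% of all genes, and 7, or 12.5%, were never altered, beside 6.57%. Of its gene and tumour pairs, 8.67% were gained and 9.69% lost among AD thymic lymphomas, against 9.69% gained and 15.8% lost among the RP ones. The shares over all genes were higher, at 10.3% and 13.2% for AD and 10.5% and 22.9% for RP tumours. The shares in sarcomas were 2.14% and 0.357% for AD and 0.357% and 0.357% for RP, beside 2.99% and 0.853%, and 0.661% and 0.575%, for all genes.

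**Figure D5:**
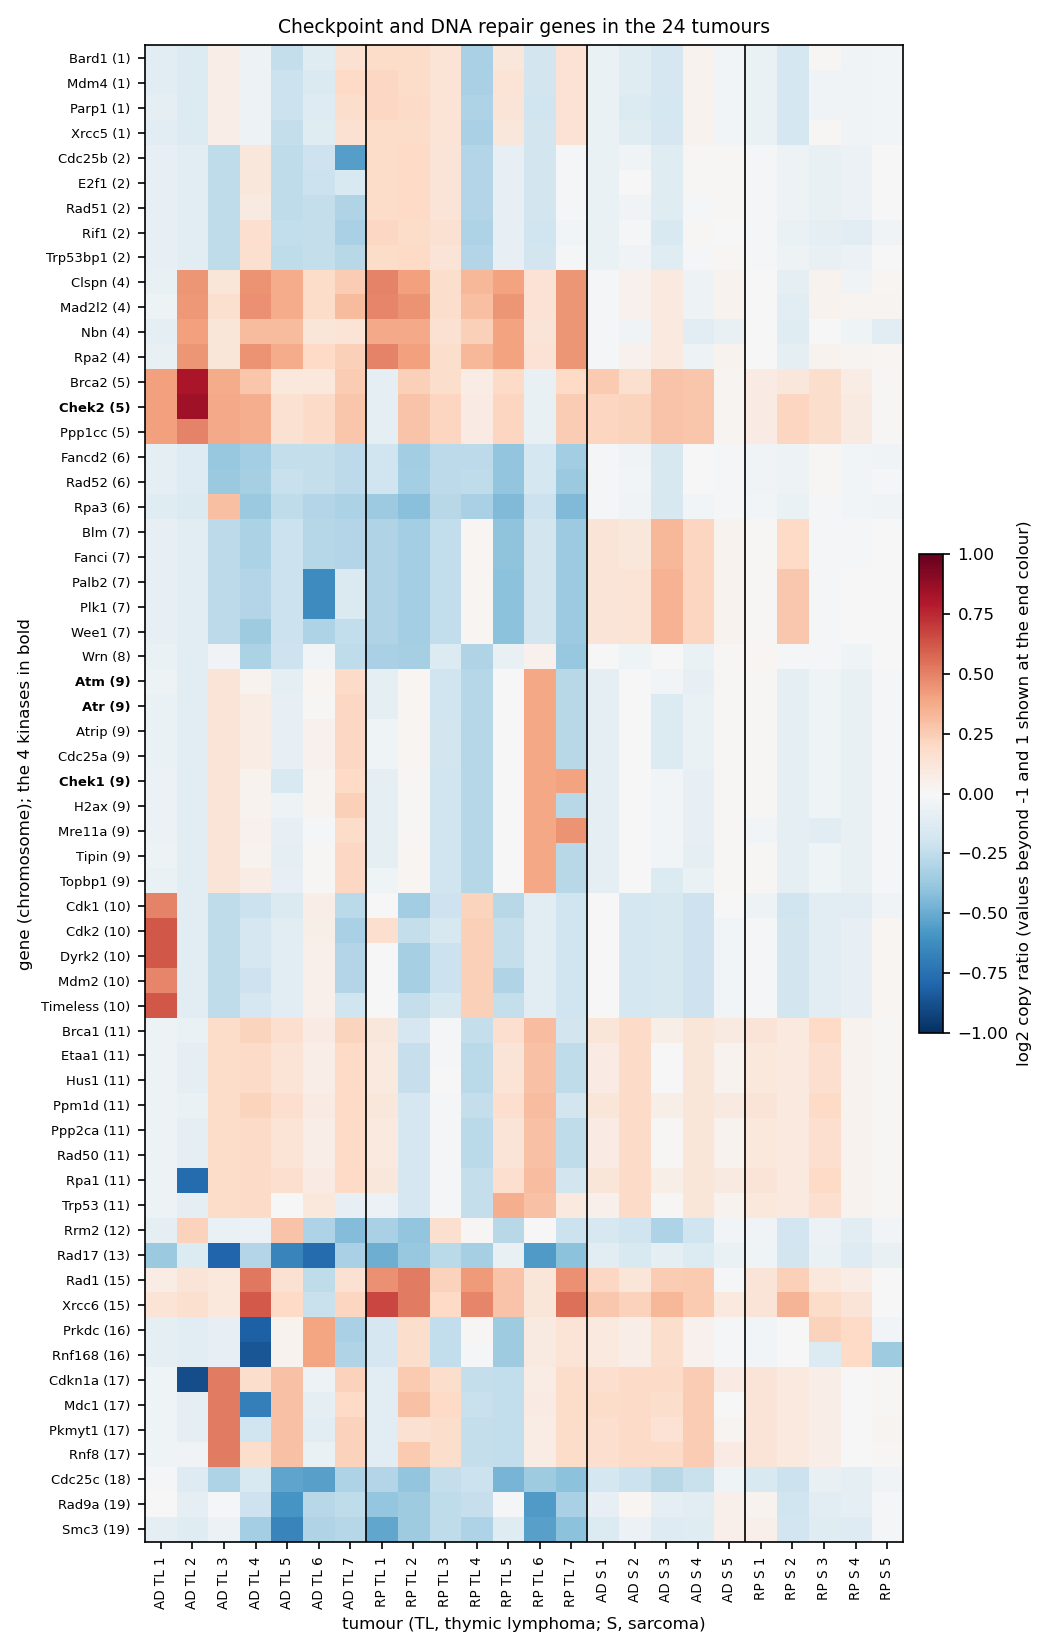
Log2 copy ratio (colour) of the 4 kinase genes and the 56 listed pathway genes (rows, with chromosome in brackets) in the 24 tumours (columns). Genes of a chromosome form bands, and in RP thymic lymphoma 7 Chek1 and Mre11a are gained, at 0.40 and 0.45, while the other listed genes of chromosome 9 stand at -0.28.

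Likeness to the kinase genes over the 24 tumours was highest for genes of the same chromosome. By Pearson's r of log2 copy ratio, given as a description because genes of a chromosome share segments, Atm was most like Tipin (0.9994), H2ax (0.996) and Topbp1 (0.98). Atr was most like Topbp1 (0.998), Atrip (0.997) and Cdc25a (0.997), all of chromosome 9. Chek1 was most like Mre11a (0.99), and far less like Tipin (0.56) and H2ax (0.56). Chek2 was most like Brca2 (0.98) and Ppp1cc (0.94), the listed genes of chromosome 5, and then Rad9a (0.25).

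Chek1 and Atm themselves had an r of 0.56 over 24 tumours and of 0.996 without RP thymic lymphoma 7, so the lower value rested on 1 tumour. Atm and Atr had an r of 0.98, and Chek2 had -0.10, -0.16 and -0.16 with Chek1, Atm and Atr. On other chromosomes the closest listed genes were Trp53 for Chek1 (0.46), and Rad50, the third subunit of the MRN complex, for Atm (0.72) and Atr (0.74), both on chromosome 11. Rad50 did not stand apart on that chromosome, as Ppp2ca (0.72) and Brca1 (0.71) had nearly the same r with Atm. Rpa1 (0.52) and Trp53 (0.44) had a lower r with Atm.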

How the data were processed

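Exome DNA of 24 tumours, read at 150 nt, was analysed. Per the file headers, each deposited table lists segments with a chromosome, start, end, number of markers and segment mean; the deposited segment mean is a log2 copy ratio. Build GRCm38 and the tools GATK 4.1.0.0, BWA 0.7.17 and Trim Galore 0.6.5 come from the submitters' processing notes. Not given in the sources used here are the comparison DNA, the segmentation settings and the centring. A shared germline difference leaves no trace in a ratio, and noise breaks a profile into short segments. Depth is unknown, so no counting interval is given. The 24 tables held 3727 segments and 0 pairs were identical. The ear samples have no segment table among the files used and were not analysed here.

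Each gene took the mean of the segments overlapping it, weighted by overlap, or the nearest segment. Positions came from RefSeq GRCm38.p6. Groups came from the genotype and tissue labels, with tumours numbered in accession order. AD and RP were compared over all 20665 autosomal protein-coding genes with two-sided exact permutation tests (3432 and 252 splits), and tumour types with 100000 resamples within genotype, with Benjamini-Hochberg adjustment over those genes. Calls and steps used two-sided Fisher's exact tests, and pairs of genes within tumours an exact sign-flip permutation test. limma 3.58.1 was an alternative. The permutation code was tested on simulated data. Python 3.11.15, numpy 2.4.6, pandas 2.3.3, scipy 1.17.1 and R 4.3.3 were used. The 4 genes, the list of 56 and the tests were chosen with earlier results of these data known. Besides the 4 genes, the text names list genes on chromosomes 5 and 9, those altered in 5 or more tumours, and those most alike. Rnf8, Cdkn1a, Ppp2ca, Brca1, Rpa1 and the genes named inside short or high segments were chosen after their values were seen. Alternatives changed the centring, the weighting of segments, the limits, the use of short segments and the tumours included.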

Additional observations from a re-analysis of the deposited data

Results flagged for a closer look

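Among 16 sets of a kinase gene and a group, each was examined for 1 tumour far from the rest by Dixon's ratio at its 95% critical value, which chance exceeds in about 1 of 20 sets, and 2 were found. Chek2 in AD thymic lymphoma 2, at 0.8484, stood apart from the other 6 AD thymic lymphomas, which ran from 0.16 to 0.41. The gap was 0.631 of the range, above the critical 0.568. Without that tumour the difference between AD and RP thymic lymphomas at Chek2 was 0.17 (exact permutation p = 0.046, adjusted p = 0.458).

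Chek2 in AD sarcoma 5, at 0.0241, was far below the other 4 AD sarcomas, which ran from 0.22 to 0.28. The gap was 0.748 of the range, above the critical 0.71. Chromosome 5 was 1 segment in this tumour, so its Chek2 value is that of the whole chromosome. AD sarcoma 5 is 1 of the tumours whose animal also gave an ear sample, and any bearing of this on its value was not tested. Without that tumour the difference between AD and RP sarcomas was 0.14 (exact permutation p = 0.0238, adjusted p = 0.149).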

How the results depend on the processing

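Of 394 values recomputed under an alternative, 0 crossed the threshold of their test. In direction, 360 were unchanged, 8 fell to 0, 4 belong to a difference of 0, of which 2 left 0, and 22 reversed, all of the latter differences of chromosome 9 genes near 0 that had not passed a test. With the chromosome median subtracted, Atm differed by -0.0037 between AD and RP thymic lymphomas and by -0.0025 between tumour types. Atm stood at that median in 18 of 24 tumours, among them 7 of 7 RP thymic lymphomas, so the subtraction left 0 there. In RP tumours alone, the tumour types differed by -0.0206 at Atm and -0.0209 at Atr. Leaving out 1 tumour at a time gave these ranges for AD minus RP: in thymic lymphomas -0.0753 to 0.0388 for Chek1, 0.0436 to 0.1554 for Atm and 0.0506 to 0.1623 for Atr, and in sarcomas -0.0092 to 0.0193 for Chek1, -0.0078 to 0.0211 for Atm and -0.0332 to 0.0043 for Atr. Between tumour types the ranges were -0.0148 to 0.0368 for Atm and -0.0007 to 0.0509 for Atr. Within thymic lymphomas Chek1 minus Atm ran from -0.0048 to 0.0519 and Chek1 minus Atr from -0.0082 to 0.0496. Within sarcomas Chek1 minus Atr ran from -0.0009 to 0.0128 and Atm minus Atr from -0.0009 to 0.0135. The cause of these reversals was not tested. For Chek2, AD minus RP ran from 0.17 to 0.285 in thymic lymphomas and from 0.0655 to 0.137 in sarcomas when 1 tumour was left out, with adjusted permutation p of at least 0.243 and 0.149. Weighting segments by markers, taking the largest overlap and leaving out short segments changed no value of the 4 genes, since each lay in 1 long segment. No paired analysis was possible because the labels carry no replicate numbers shared between the tumour groups. Signal over background and read depth are unknown here, so whether a difference under the spread between tumours lies beyond the assay's own noise could not be measured.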
